A study of Mus musculus with 5 samples.

Results

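The 33 genes described here are the V and J segments of the T cell receptor beta chain (TRB): every V name and every J name carried by a deposited TRB contig in the control and the anti-CTLA-4 receptor libraries. They comprise 21 V names and 12 J names, of 290 V and J names over all receptor chains of the series, and each of the 33 was seen in both libraries. The mice were BALB/c, 6 weeks old, and carried subcutaneous tumours of CT26, a colon carcinoma line of the same strain. The anti-CTLA-4 group received 100 μg of the antibody 9H10 into the peritoneum on days 5, 8 and 11 after the tumour cells, the control group received phosphate-buffered saline on the same days, and tissue was taken on day 13. CTLA-4 restrains T cell activation by competing with the costimulatory receptor CD28 for its ligands. Each group is 1 library, the labels do not say how many mice it holds, and the labelled tissue is given only as tissue, dissociated with a tumour kit. Differences between the libraries therefore have no replicate check, and the intervals below are exact (Clopper-Pearson) 95% intervals that cover counting error only.

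A beta chain is made when a developing T cell joins 1 V, 1 D and 1 J segment of the Trb locus. Bases are trimmed from and added to the segment ends, so the joint, which forms the third complementarity-determining region (CDR3), differs between cells while cells of a clone share it. The V segment also encodes the first and the second such loops, which mostly touch the MHC molecule, whereas the CDR3 lies over the peptide. J segments sit in 2 clusters, each followed by its own constant gene.

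Sequences are shown for the CDR3s on which the results below turn, each from the codon of the conserved cysteine to that of the phenylalanine, 5′ to 3′. Lower case marks bases that match the end of the reference V segment or the start of the reference J segment, and capitals mark the bases between, which match neither. For comparison, the reference ends from the GENCODE M21 transcripts are given first, with the complete D1 segment.
Trbv19 end: tgtgccagcagtatag
Trbv4 end: tgtgccagcagctaaga
Trbv13-2 end: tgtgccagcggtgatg
Trbd1: gggacagggggc
Trbj2-1 start: taactatgctgagcagttcttc
Trbj1-2 start: caaactccgactacaccttc

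The next 6 CDR3s are those of all clonotypes, in either library, whose cells held the alpha chain TRAV3-3 with TRAJ13. A clonotype here is a V name, a J name and a CDR3 nucleotide sequence within a library.
Control TRBV10, TRBJ2-1, 2 cells: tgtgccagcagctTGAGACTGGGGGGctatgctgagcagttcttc
Control TRBV19, TRBJ2-1, 2 cells: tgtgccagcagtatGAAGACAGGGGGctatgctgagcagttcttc
Control TRBV29, TRBJ2-1, 1 cell: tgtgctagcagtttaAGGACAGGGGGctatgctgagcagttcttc
Anti-CTLA-4 TRBV10, TRBJ2-1, 11 cells: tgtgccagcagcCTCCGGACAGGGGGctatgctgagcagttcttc
Anti-CTLA-4 TRBV19, TRBJ2-1, 9 cells: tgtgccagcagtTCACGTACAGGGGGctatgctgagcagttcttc
Anti-CTLA-4 TRBV19, TRBJ2-1, 6 cells: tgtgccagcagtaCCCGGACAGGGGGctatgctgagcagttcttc

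These 4 are the clonotypes of both libraries that joined the V name TRBV12-2+TRBV13-2 to TRBJ1-2 and held the alpha chain TRAV4-2 with TRAJ49.
Control, 2 cells: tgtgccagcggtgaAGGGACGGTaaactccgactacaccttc
Control, 2 cells: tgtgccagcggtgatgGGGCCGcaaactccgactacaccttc
Anti-CTLA-4, 10 cells: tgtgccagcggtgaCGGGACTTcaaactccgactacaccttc
Anti-CTLA-4, 1 cell: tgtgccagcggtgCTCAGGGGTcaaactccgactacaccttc

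The last 4 are the largest and the next largest clonotype of the anti-CTLA-4 library, and the CDR3s found with the same V and J in both libraries.
Anti-CTLA-4 TRBV13-1, TRBJ2-1, 25 cells: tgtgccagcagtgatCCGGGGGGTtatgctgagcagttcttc
Anti-CTLA-4 TRBV13-1, TRBJ2-7, 15 cells: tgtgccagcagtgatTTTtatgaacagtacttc
Both libraries TRBV13-3, TRBJ2-7: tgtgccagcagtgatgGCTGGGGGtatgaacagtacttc
Both libraries TRBV10, TRBJ2-5: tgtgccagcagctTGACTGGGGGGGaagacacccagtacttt

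The control library held 287 TRB contigs in 282 cells, and the anti-CTLA-4 library held 1567 in 1529 cells. These cells were 4.99% and 36.5% of the barcodes of the matching expression libraries. The median contig had 6 unique molecular identifiers (UMIs, each a captured molecule) in both libraries, and 88.9% and 89.0% of contigs had at least 3. No TRB barcode was shared between the libraries, and 20 expression barcodes were. The T cell list (Cd3d, Cd3e, Cd3g, Trac, Trbc1, Trbc2) was detected in 98.2% (control) and 99.9% (anti-CTLA-4) of these cells, and Cd3e alone in 86.5% and 93.5%. At least 1 gene of the regulatory T cell list (Foxp3, Il2ra, Ikzf2, Ctla4) was detected in 51.1% and 42.8%. The genes of this list differed: Foxp3 was detected in 19.9% (control) and 6.41% (anti-CTLA-4), and Ctla4 in 34.4% and 31.4%. Il2ra and Ikzf2 were also detected in a larger share of the control cells. The lists of other cells gave 16.0% and 13.1% for macrophages, 1.42% and 3.99% for neutrophils, 1.06% and 0.458% for NK cells, and 2.13% and 1.05% for gamma-delta T cells. The libraries stood apart in RNA of other cells: the tumour-side list (Crabp1, Krt20) was detected in 54.3% and 0.327%, mostly through Crabp1. Jchain, a gene of antibody-secreting cells, was seen in no control TRB cell and in 6.08% of those from the treated group, and Sdc1 in 5.67% and 0.981%. Invariant alpha chains of NKT and MAIT cells were found in 2 cells of each library. Median expression UMIs per TRB cell were 2322 and 3768. The part of these differences in the usage values below was not tested.

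Clonotypes numbered 279 in the control and 1218 in the anti-CTLA-4 library. In the control library 8 clonotypes (2.87%, interval 1.25% to 5.57%) were seen in at least 2 cells, and none in 3 or more. For the anti-CTLA-4 library 121 (9.93%, interval 8.31% to 11.8%) were seen in at least 2 cells and 63 in at least 3. Depth differed between the libraries. At the control number of contigs, the anti-CTLA-4 clone sizes would on average give 259.5 clonotypes, 18.2 of them seen at least 2 times, by the formula for drawing without replacement.

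V usage was broad in both libraries, with overlapping intervals at every V name. As named in the files, the most used V in the control library was the combined name TRBV12-2+TRBV13-2, with 31 of 279 clonotypes (11.1%, interval 7.68% to 15.4%). It was followed by TRBV5 with 28 (10.0%), TRBV1 with 25 and TRBV13-1 with 25 (8.96% each). The anti-CTLA-4 library was led by TRBV13-1 with 131 of 1218 clonotypes (10.8%, interval 9.07% to 12.6%), then TRBV19 with 125 (10.3%), the combined name with 108 (8.87%) and TRBV5 with 106 (8.70%). The intervals of these leading names overlap within each library, so their order is given as counted and was not tested.

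Of the other V names with at least 5% of clonotypes in either library, those given here differed by less than 1.5-fold. TRBV31 was the nearest to that limit, with a ratio of 1.47, and TRBV13-2 is described below. TRBV10 held 7.89% and 7.22% of control and anti-CTLA-4 clonotypes, TRBV13-3 7.53% and 7.14%, TRBV20 6.45% and 6.24%, and TRBV29 6.09% and 6.24%. TRBV2 held 5.73% and 4.19%, and TRBV31, which lies beyond the J clusters on the opposite strand (mm10 chr6:41557691-41558452), 5.02% and 7.39%. At the low end, TRBV12-1, TRBV12-2, TRBV26 and TRBV30 had 1 clonotype each in the control library and 2, 1, 1 and 2 in the anti-CTLA-4 library.

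**Figure D1:**
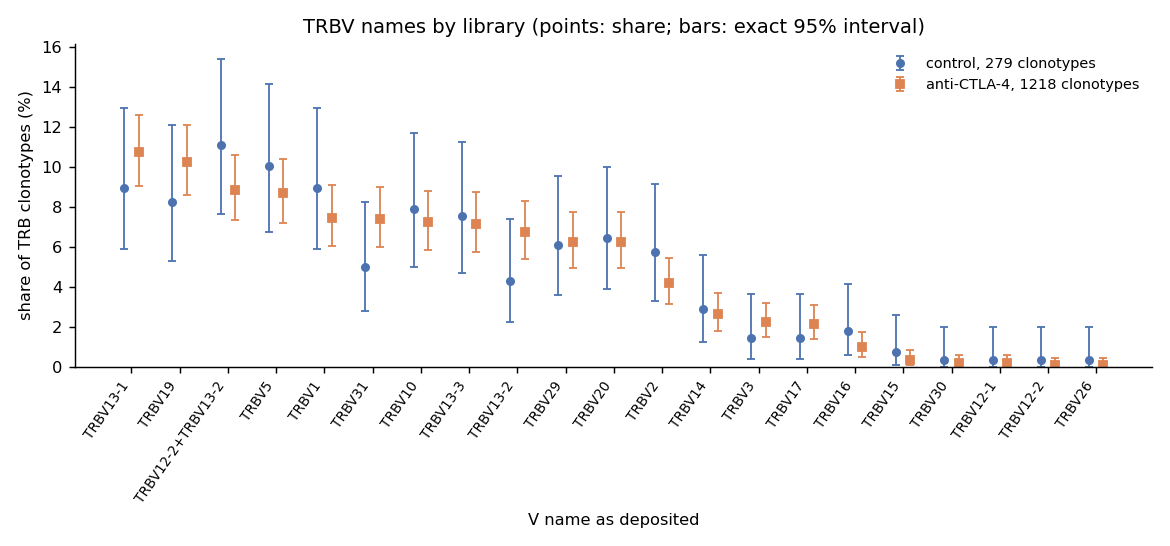
Share of TRB clonotypes (%, vertical axis) with each V name as deposited (horizontal axis), in the control library (circles, 279 clonotypes) and the anti-CTLA-4 library (squares, 1218 clonotypes), with exact 95% intervals for counting error as bars. The intervals of the libraries overlap at every V name, and the control intervals are the wider ones.

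Of the 16 V names with at least 10 clonotypes over both libraries, 3 (18.8%) differed by 1.5-fold or more between the libraries, 2 higher (12.5%) and 1 lower (6.25%) in the anti-CTLA-4 library. TRBV13-2 held 12 control clonotypes (4.30%, interval 2.24% to 7.39%) and 82 anti-CTLA-4 clonotypes (6.73%, interval 5.39% to 8.29%), a ratio of 1.57. TRBV3 held 4 (1.43%) and 27 (2.22%), a ratio of 1.55, and TRBV16 held 5 (1.79%) and 12 (0.985%), a ratio of 0.550. For each of these 3 the intervals overlapped, as they did at every other V name. Overlap does not show that 2 shares are alike, and the differences were not tested.

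The TRBV13-2 difference depended on how that gene was named. Contigs with the combined name mostly carried CDR3s whose first 11 bases were those of the Trbv13-2 end printed above (the V beta 8.2 gene, mm10 chr6:41121396-41121832). This held for 29 of 31 control and 105 of 108 anti-CTLA-4 clonotypes. Cells with the combined name held Trbv13-2 UMIs in the expression library: 28 of 31 did in the control library, and 143 of 145 after anti-CTLA-4. With both names counted as TRBV13-2, it was the most used V in both libraries, with 43 control clonotypes (15.4%, interval 11.4% to 20.2%) and 185 anti-CTLA-4 clonotypes (15.3%, interval 13.3% to 17.4%), a ratio of 0.990. Then 2 of 15 V names (13.3%) were past 1.5-fold, 1 in each direction (6.67%).

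Contigs under these names also differed in length. Contigs with the combined name were longer, with a median of 568 bases in both libraries, against 525 and 536 bases for contigs named TRBV13-2 alone. In the anti-CTLA-4 library 15 of 108 clonotypes with the combined name were in at least 2 cells, and 0 of 82 with the name TRBV13-2 alone, which allows a share of up to 4.40%. In that library 5 CDR3s occurred under both names with the same J. Cells with such a CDR3 were counted under 2 names, and the 0 of 82 depends on this split. The TRBV13 genes (TRBV13-1, TRBV13-2 and TRBV13-3, the V beta 8 family of serology) together held 31.9% (interval 26.5% to 37.7%) of control and 33.5% (interval 30.8% to 36.2%) of anti-CTLA-4 clonotypes when the combined name was included.

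The name TRBV10 did not match the reference gene of that symbol. In GENCODE M21, Trbv10 (mm10 chr6:41091940-41092228) is a V pseudogene, and no contig was named TRBV4. The ends of both reference genes are shown, with the CDR3 part of Trbv4 in capitals.
Trbv4 reference end: gtgtatctcTGTGCCAGCAGCTAAGA
Trbv10 reference end: gtacttctgggccagcagtgaacaaa
Of 110 clonotypes named TRBV10 over both libraries, 109 began with tgtgccagc and 97 with tgtgccagcagc, as Trbv4 (mm10 chr6:41059394-41059886) ends. The longer start tgtgccagcagct was found in 59. The ends of Trbv2, Trbv3 and Trbv5 also start with tgtgccagcagc, so these starts alone do not name the gene. None of the 110 kept the bases to tgtgccagcagctaa, which would complete the stop codon of the Trbv4 end. A CDR3 that is read through to its J cannot hold a stop codon, so that count does not bear on the gene. In the expression library a Trbv4 UMI was held by 7 of 23 cells named TRBV10 from the control and 114 of 141 from the treated group, while 0 held a Trbv10 UMI. Of the cells with another V name, 1 of 254 and 12 of 1350 had a Trbv4 UMI.

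The V name of the contig and the V gene of the expression library mostly named the same gene. With TRBV10 read as Trbv4 and the combined name as Trbv13-2, 214 of 277 control cells with 1 TRB contig (77.3%, interval 71.9% to 82.1%) held a UMI of the matching gene. For the anti-CTLA-4 library the number was 1392 of 1491 (93.4%, interval 92.0% to 94.6%). The matching gene took 94.0% and 93.0% of all Trbv UMIs in these cells. TRBV5 was the lowest, with a Trbv5 UMI in 1 of its 27 control cells and in 55 of its 124 cells from the treated group. Barcodes without a receptor contig gave the background: any Trbv UMI was seen in 0.655% of them in the control library (median 7683 UMIs). The anti-CTLA-4 value was 12.1% (median 2773 UMIs).

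**Figure D2:**
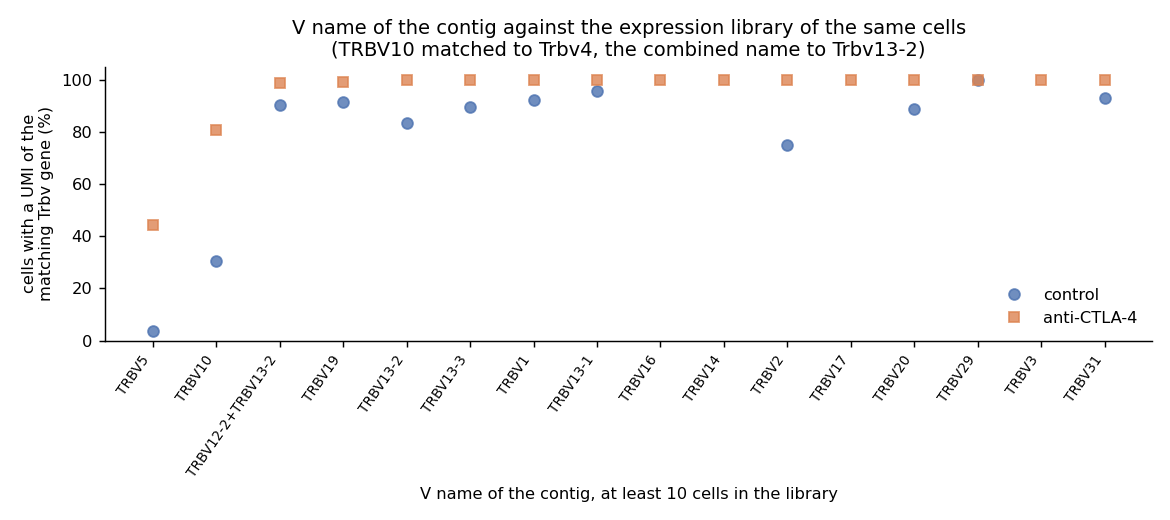
Share of cells (%, vertical axis) with at least 1 UMI of the matching Trbv gene in the expression library, for each V name with at least 10 cells with a single TRB contig (horizontal axis), in the control library (circles) and the anti-CTLA-4 library (squares). TRBV5 and TRBV10 are the lowest in both libraries, and every other anti-CTLA-4 value is near 100%.

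Of the V names, 5 are linked in BALB/c mice to superantigens of endogenous mammary tumour viruses, which are known to remove T cells that carry them in the thymus. These 5 (TRBV12-1, TRBV12-2, TRBV15, TRBV16 and TRBV26) together held 10 control clonotypes (3.58%, interval 1.73% to 6.49%) and 20 anti-CTLA-4 clonotypes (1.64%, interval 1.01% to 2.52%). They were rare in both libraries, and the intervals overlapped. TRBV16 was the most used of them in both. After anti-CTLA-4, TRBV16 held 6 of 356 CD8 clonotypes and 1 of 404 CD4 clonotypes, with overlapping intervals (0.621% to 3.63% and 0.00627% to 1.37%).

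Among J genes, the intervals of the libraries lay apart at a single gene. TRBJ2-7, the last J of the locus (mm10 chr6:41543810-41543856), held 28 of 279 control clonotypes (10.0%, interval 6.77% to 14.2%) and 210 of 1218 anti-CTLA-4 clonotypes (17.2%, interval 15.2% to 19.5%), a ratio of 1.72. It ranked first among the J genes in the anti-CTLA-4 library, whereas in the control library TRBJ2-1 did, with 38 clonotypes (13.6%) against 126 (10.3%). Of the 12 J genes, 3 (25.0%) were past 1.5-fold, all higher in the anti-CTLA-4 library. The other J genes were closer: TRBJ1-1 held 10.0% and 8.87% of control and anti-CTLA-4 clonotypes, TRBJ1-2 7.53% and 6.81%, TRBJ1-3 7.17% and 7.22%, and TRBJ1-4 10.4% and 8.70%. In the J2 cluster TRBJ2-2 held 5.73% and 5.83%, TRBJ2-3 10.4% and 7.72%, TRBJ2-4 9.68% and 8.21%, and TRBJ2-5 11.8% and 11.6%. The remaining pair past 1.5-fold, TRBJ1-5 and TRBJ1-6, are neighbours in the J1 cluster, and each held 5 control clonotypes (1.79%). They held 43 (3.53%, ratio 1.97) and 48 (3.94%, ratio 2.20) anti-CTLA-4 clonotypes, with overlapping intervals.

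Among clonotypes seen in a single cell, TRBJ2-7 held 27 of 271 in the control library (9.96%, interval 6.67% to 14.2%) and 190 of 1097 after anti-CTLA-4 (17.3%, interval 15.1% to 19.7%). These are most of the clonotypes counted above, so the like shares are not a separate check. By class, TRBJ2-7 held 3 of 58 control CD8 clonotypes (5.17%, interval 1.08% to 14.4%) and 74 of 356 anti-CTLA-4 CD8 clonotypes (20.8%, interval 16.7% to 25.4%). In CD4 clonotypes it held 6 of 56 (10.7%, interval 4.03% to 21.9%) and 60 of 404 (14.9%, interval 11.5% to 18.7%), and in unclassed clonotypes 19 of 165 (11.5%) and 76 of 457 (16.6%). The intervals lay apart in CD8 clonotypes and overlapped in the others, and the difference between the classes was not tested.

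**Figure D3:**
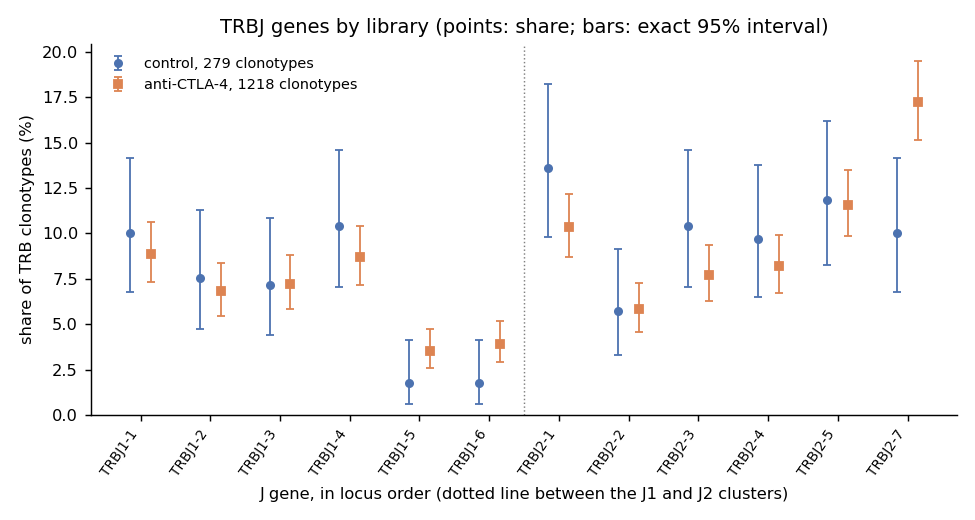
Share of TRB clonotypes (%, vertical axis) with each J gene in locus order (horizontal axis), in the control library (circles) and the anti-CTLA-4 library (squares), with exact 95% intervals as bars. TRBJ2-7, at 10.0% and 17.2%, is the only gene whose intervals lie apart.

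The J clusters themselves were used alike. The J2 cluster held 171 control clonotypes (61.3%, interval 55.3% to 67.0%) and 742 anti-CTLA-4 clonotypes (60.9%, interval 58.1% to 63.7%). All contigs with a constant gene paired in the order of the locus: J1 with TRBC1 in 109 control and 571 anti-CTLA-4 contigs, and J2 with TRBC2 in 174 and 985. In the deposited D calls, TRBD2, which lies between the clusters, was given for 0 control and 2 anti-CTLA-4 contigs with a J1 gene, against 23 and 115 with a J2 gene.

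Counted per contig, so that a clone weighs by its cells, some calls changed. TRBV13-2 (ratio 1.25) and TRBV3 (ratio 1.47) were no longer past 1.5-fold, while TRBV31 and TRBJ2-3 were past it only in this count. Past 1.5-fold were 2 of 16 V names (12.5%), 1 higher (6.25%) and 1 lower (6.25%): TRBV31 at 4.88% of control and 7.53% of anti-CTLA-4 contigs (ratio 1.54), and TRBV16 at 1.74% and 0.766% (ratio 0.440). Among J genes 4 of 12 (33.3%) were past it, TRBJ1-5, TRBJ1-6 and TRBJ2-7 higher (25.0%) and TRBJ2-3 lower (8.33%), the latter with 10.8% and 6.76% of contigs. Only TRBJ2-7 had intervals apart, with 29 of 287 control contigs (10.1%, interval 6.87% to 14.2%) and 276 of 1567 anti-CTLA-4 contigs (17.6%, interval 15.8% to 19.6%).

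Cells were classed by their expression UMIs as CD4 (Cd4 without Cd8a or Cd8b1) or CD8 (Cd8a or Cd8b1 without Cd4). The control library had 57 CD4 and 60 CD8 cells, 2 with both and 163 with neither. The anti-CTLA-4 library had 471, 535, 21 and 502. A clonotype took the class of its cells. Among clonotypes with at least 2 classed cells, 0 of 5 control and 1 of 83 anti-CTLA-4 clonotypes held cells of both classes, the latter a TRBV14 and TRBJ2-5 clonotype with 6 CD4 cells and 1 CD8 cell.

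TRBV17 was carried mostly by CD8 clonotypes in the anti-CTLA-4 library. It held 14 of 356 CD8 clonotypes (3.93%, interval 2.17% to 6.51%) and 3 of 404 CD4 clonotypes (0.743%, interval 0.153% to 2.15%), and was the only V name whose intervals lay apart. Of 15 V names with enough clonotypes, 4 (26.7%) were past 1.5-fold, 2 in each direction (13.3%). TRBV1 had a higher share in CD4 clonotypes (10.1% against 5.90%, ratio 1.72), as had TRBV14 (3.22% against 1.97%, ratio 1.64). TRBV29 had a lower share in CD4 clonotypes (4.70% against 8.71%, ratio 0.540), and the intervals of these 3 overlapped. The control library held 1 CD4 and 0 CD8 clonotypes with TRBV17, too few to compare.

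Among J genes of the anti-CTLA-4 library, 5 of 12 (41.7%) were past 1.5-fold between the classes, 3 higher (25.0%) and 2 lower (16.7%) in CD4 clonotypes. TRBJ1-1 and TRBJ1-2 were lower in CD4 than in CD8 clonotypes (7.43% against 12.9%, and 5.69% against 9.55%). Their neighbours TRBJ1-3 and TRBJ1-4 were higher (8.91% against 3.93%, ratio 2.27, and 9.65% against 5.06%, ratio 1.91), as was TRBJ2-2 (7.43% against 4.78%, ratio 1.56). All of these intervals overlapped, the nearest to parting being those of TRBJ1-3 (6.32% to 12.1% in CD4 and 2.17% to 6.51% in CD8).

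**Figure D4:**
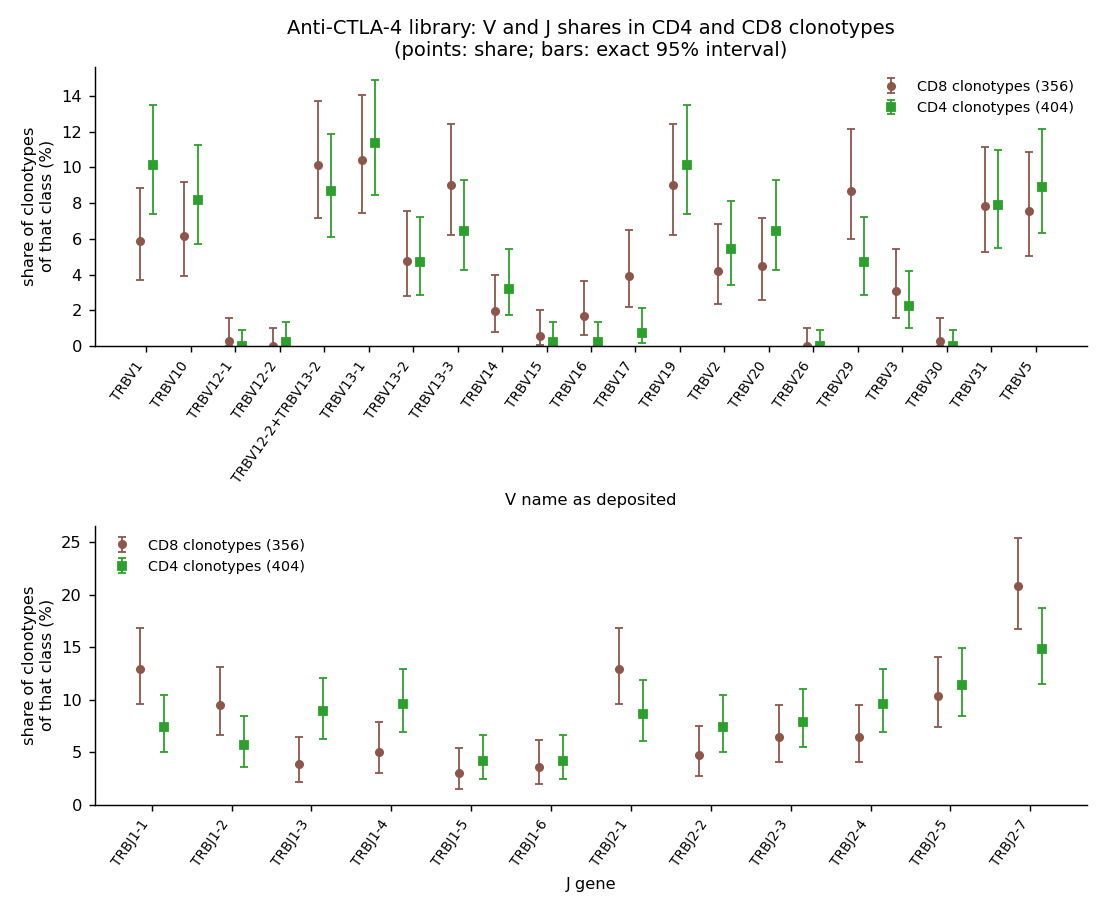
Shares of the 404 CD4 (squares) and 356 CD8 (circles) clonotypes of the anti-CTLA-4 library (%, vertical axes) with each V name (upper panel) and J gene (lower panel), with exact 95% intervals as bars. TRBV17 is the only name whose intervals lie apart, at 0.743% in CD4 and 3.93% in CD8 clonotypes.

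In the control library 56 CD4 and 58 CD8 clonotypes could be compared. Of 4 V names with enough clonotypes, 2 (50.0%) were past 1.5-fold, 1 in each direction (25.0%). The combined name held 2 CD4 (3.57%, interval 0.435% to 12.3%) and 12 CD8 clonotypes (20.7%, interval 11.2% to 33.4%), and TRBV5 8 CD4 (14.3%, interval 6.38% to 26.2%) and 2 CD8 clonotypes (3.45%, interval 0.421% to 11.9%). With both names merged, TRBV13-2 held 5 CD4 (8.93%, interval 2.96% to 19.6%) and 14 CD8 clonotypes (24.1%, interval 13.9% to 37.2%). Its ratio was then 0.370, against 0.173 for the combined name alone, and still past 1.5-fold. Of 7 J genes, 2 (28.6%) were past it, 1 in each direction (14.3%): TRBJ2-1 lower in CD4 clonotypes (10.7% against 17.2%) and TRBJ2-5 higher (17.9% against 5.17%). All intervals overlapped. None of these V names leaned by 1.5-fold after anti-CTLA-4: TRBV5 held 8.91% of CD4 and 7.58% of CD8 clonotypes, the combined name 8.66% and 10.1%, and merged TRBV13-2 12.9% and 14.2%.

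Foxp3, the defining transcription factor of regulatory T cells, marked cells with a Foxp3 UMI and no Cd8a or Cd8b1 UMI. These gave 52 clonotypes in the control and 89 in the anti-CTLA-4 library, set against 38 and 361 CD4 clonotypes without such a cell. Many of these cells had no Cd4 UMI (34 of 52 in the control library and 47 of 88 after anti-CTLA-4). TRBV19 held 10 Foxp3 clonotypes (19.2%, interval 9.63% to 32.5%) and 1 other CD4 clonotype (2.63%, interval 0.0666% to 13.8%) in the control library. After anti-CTLA-4 it held 13 (14.6%, interval 8.01% to 23.7%) and 32 (8.86%, interval 6.14% to 12.3%). TRBV29 held 6 (11.5%) and 1 (2.63%) in the control library, and 9 (10.1%, interval 4.73% to 18.3%) and 15 (4.16%, interval 2.34% to 6.76%) in the anti-CTLA-4 library. TRBV29 in the control library was under the minimum of 10 clonotypes for a call. Both names had the higher share among Foxp3 clonotypes in each library, with overlapping intervals. TRBV5 was past 1.5-fold in both libraries but in opposite directions. It held 3 Foxp3 (5.77%, interval 1.21% to 15.9%) and 7 other CD4 clonotypes (18.4%, interval 7.74% to 34.3%) in the control library. After anti-CTLA-4 it held 12 (13.5%, interval 7.17% to 22.4%) and 29 (8.03%, interval 5.45% to 11.3%), also with overlapping intervals.

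Only TRBV10 had intervals apart among the Foxp3 comparisons: in the anti-CTLA-4 library it held 1 of 89 Foxp3 clonotypes (1.12%, interval 0.0284% to 6.10%) and 32 of 361 other CD4 clonotypes (8.86%, interval 6.14% to 12.3%). In the control library it held 6 of 52 (11.5%, interval 4.35% to 23.4%) and 3 of 38 (7.89%, interval 1.66% to 21.4%). The number of V names past 1.5-fold was 2 of 2 with enough clonotypes (100%) in the control library, 1 in each direction (50.0%). It was 7 of 14 (50.0%) in the anti-CTLA-4 library, 3 higher (21.4%) and 4 lower (28.6%) in Foxp3 clonotypes. For J genes it was 3 of 5 (60.0%) in the control library, 2 higher (40.0%) and 1 lower, and 3 of 12 (25.0%) after anti-CTLA-4, 1 higher (8.33%) and 2 lower (16.7%). With counts this small these shares are read as a description. TRBJ1-3 was past it in both libraries, with overlapping intervals. It held 7 Foxp3 (13.5%, interval 5.59% to 25.8%) and 3 other CD4 clonotypes (7.89%, interval 1.66% to 21.4%) in the control library. After anti-CTLA-4 it held 12 (13.5%, interval 7.17% to 22.4%) and 30 (8.31%, interval 5.68% to 11.7%). The other J genes past it in the control library leaned the other way after anti-CTLA-4. Their control and anti-CTLA-4 ratios, Foxp3 over other CD4, were 2.92 and 0.737 for TRBJ2-1, and 0.522 and 1.39 for TRBJ2-5.

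CDR3 length was alike in both libraries. It averaged 14.0 ± 1.44 residues (SD over 279 clonotypes) in the control and 14.0 ± 1.44 (SD over 1218) in the anti-CTLA-4 library. Lengths of 13 to 15 residues made up 73.8% (interval 68.3% to 78.9%) and 72.6% (interval 70.0% to 75.1%). The shortest and the longest were 10 and 17 residues in the control library, and 6 and 19 in the anti-CTLA-4 library. CD8 clonotypes averaged 14.3 ± 1.26 (n = 58) and 13.9 ± 1.55 (n = 356), and CD4 clonotypes 14.0 ± 1.37 (n = 56) and 14.1 ± 1.39 (n = 404). The CD8 mean was the higher one in the control library and the lower one after anti-CTLA-4.

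Length differed by gene segment. TRBV2, with a reference end of 17 bases, averaged long CDR3s (14.9 ± 1.36 residues, n = 16, and 15.1 ± 1.52, n = 51). TRBV20, with 14 bases, averaged short ones (13.4 ± 1.29, n = 18, and 13.3 ± 1.20, n = 76). The length of the V end did not set the order by itself: TRBV29, also with 17 bases, averaged 13.8 ± 1.42 (n = 17) and 13.5 ± 1.64 (n = 76). TRBJ2-2 averaged 15.1 ± 0.957 (n = 16) and 14.6 ± 1.16 (n = 71), and TRBJ1-2 13.3 ± 0.845 (n = 21) and 13.5 ± 1.005 (n = 83). TRBJ2-7 had the lowest mean of the J genes after anti-CTLA-4, 13.2 ± 1.497 (n = 210), against 13.8 ± 1.40 (n = 28) in the control library. The bases between the V and J matches numbered 9.98 ± 3.91 in the control and 9.99 ± 3.86 in the anti-CTLA-4 library, so the added and D bases were alike too.

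**Figure D5:**
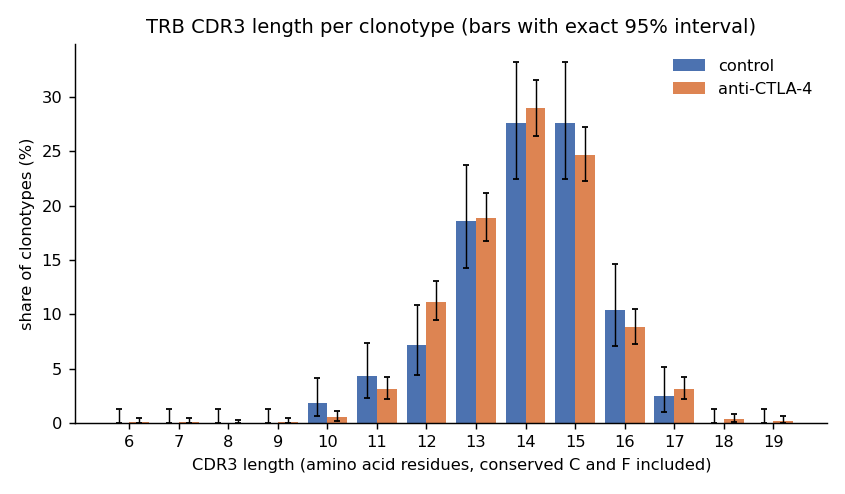
Share of TRB clonotypes (%, vertical axis) by CDR3 length in residues (horizontal axis) in the control and the anti-CTLA-4 library, with exact 95% intervals as thin bars. Both libraries peak at 14 and 15 residues, and lengths under 10 or over 17 are seen in the anti-CTLA-4 library alone, which has more clonotypes.

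The largest clonotypes of the anti-CTLA-4 library were CD8. The first joined TRBV13-1 to TRBJ2-1, with 25 cells (1.64% of TRB cells, interval 1.06% to 2.40%), all CD8, and the alpha chain TRAV13-2 with TRAJ34 in all 23 cells with an alpha contig. The next joined TRBV13-1 to TRBJ2-7, with 15 cells, all CD8, and an 11-residue CDR3 with only 3 bases between its V and J matches. TRBV10 with TRBJ2-1, TRBV10 with TRBJ2-5, and TRBV2 with TRBJ2-1 followed with 11 cells each, of which 10, 11 and 10 were CD8. In the control library the 8 clonotypes with 2 cells tied for the largest, and 4 of them were CD8, 2 CD4 and 2 unclassed.

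Several combinations of beta and alpha segments recurred between the libraries. TRAV3-3 with TRAJ13 was found in 5 of 212 control cells with both chains (2.36%, interval 0.770% to 5.42%) and, after anti-CTLA-4, in 26 of 1074 (2.42%, interval 1.59% to 3.53%). All 31 of these cells used TRBJ2-1, in 6 clonotypes, each with a 15-residue CDR3 of 45 bases that ended in gggggctatgctgagcagttcttc, as printed above. Among cells with another alpha chain, TRBJ2-1 was used by 12.6% (interval 8.37% to 17.9%) of those from the control and 12.1% (interval 10.2% to 14.2%) of those from the treated group. These shares count cells, and cells of a clone share 1 rearrangement, so the intervals understate the counting error. Counted per clonotype, TRAV3-3 with TRAJ13 went with TRBJ2-1 in 3 of 3 clonotypes in each library. The beta V differed within the group: TRBV10, TRBV19 and TRBV29 in the control library, and TRBV10 and TRBV19 in the anti-CTLA-4 library. No beta CDR3 of the group was shared between the libraries at the nucleotide level. The alpha CDR3 had 4 nucleotide sequences in the 5 control cells, and 1 in all 26 cells from the treated group, across their 3 beta clonotypes. By class, 4 of the 5 control cells were CD8, as were 25 of the 26 from the treated group, and none was CD4.

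The same CDR3 ending was also found without that alpha chain. Over all TRBJ2-1 clonotypes it was carried by 6 of 38 in the control library (15.8%, interval 6.02% to 31.3%) and 7 of 126 after anti-CTLA-4 (5.56%, interval 2.26% to 11.1%). These counts include the clonotypes with that alpha chain, 3 in each library. The CD8 counts that follow also include clonotypes of that group. By class it was found in 4 of 10 CD8 and 1 of 6 CD4 clonotypes with TRBJ2-1 in the control library, the latter a TRBV14 clonotype whose cell had a Foxp3 UMI. After anti-CTLA-4 it was found in 5 of 46 CD8 and 0 of 35 CD4 clonotypes with TRBJ2-1, and 0 of 35 allows a share of up to 10.0%. The ending was chosen after the values had been seen, so these shares are a description.

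A further group paired the Trbv13-2 gene (named TRBV12-2+TRBV13-2), TRBJ1-2 and a 14-residue CDR3 with TRAV4-2 and TRAJ49. It had 2 clonotypes in each library, the 4 printed above, with 3 control and 10 anti-CTLA-4 cells that held this alpha chain, 12 of them CD8. All 3 control cells and 10 of 11 anti-CTLA-4 cells with TRAV4-2 and TRAJ49 used TRBJ1-2, against 7.18% (interval 4.07% to 11.6%) and 6.77% (interval 5.34% to 8.45%) of cells with another alpha chain. All 4 of the CD8 clonotypes seen in 2 cells in the control library belonged to these groups, 2 to each. After anti-CTLA-4, 4 of the 42 CD8 clonotypes in at least 2 cells did.

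Of 1115 combinations of a beta V, beta J, alpha V and alpha J, counted with both Trbv13-2 names merged, 10 were in both libraries. They included TRBV31 and TRBJ1-6 with TRAV7-3 and TRAJ22, with 1 control and 3 anti-CTLA-4 clonotypes (1 and 10 cells, 10 CD8 and 1 unclassed), all with 16-residue CDR3s. TRBV10 and TRBJ2-5 with TRAV4-3 and TRAJ18 had 1 and 2 clonotypes (1 and 5 cells, 5 CD4 and 1 unclassed). Combinations recurred in both CD8 and CD4 cells, and the groups were noticed in the values themselves.

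Only 2 clonotypes were identical in V, J and CDR3 nucleotides between the libraries. The first, TRBV13-3 with TRBJ2-7, had 1 control cell and 7 anti-CTLA-4 cells, all CD8. Its alpha CDR3, with TRAV21-DV12 and TRAJ56, was also identical in nucleotides in the control cell and in the 6 anti-CTLA-4 cells with an alpha contig. The control beta contig rested on 1 UMI and 559 reads, and the control alpha contig on 5 UMIs. The anti-CTLA-4 beta contigs had 4 to 15 UMIs. Whether the control molecule came from that library was not tested. The second, TRBV10 with TRBJ2-5, had 1 unclassed control cell with 18 UMIs and 4 CD4 cells in the anti-CTLA-4 library, with no alpha CDR3 in common.

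At the level of amino acids, 4 CDR3s with the same V and J were found in both libraries, of 1481 distinct ones. In 9 cases more than 1 nucleotide sequence wrote the same CDR3 on the same V and J, 3 of them with clonotypes in both libraries. In all 9 the classed cells were of 1 class. Several of the 9 had classed cells in only 1 of their clonotypes, so their clonotypes could not be compared.

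The V names of the anti-CTLA-4 library varied in how many of their clonotypes were in at least 2 cells. As given above, none of 82 clonotypes named TRBV13-2 was, and with both of its names merged 15 of 185 were. The share was 19.6% (interval 9.82% to 33.1%) for TRBV2, 16.5% for TRBV1, 15.9% for TRBV10, 7.20% (interval 3.35% to 13.2%) for TRBV19 and 3.95% (interval 0.822% to 11.1%) for TRBV20. Among J genes it ranged from 5.32% for TRBJ2-3 to 16.7% for TRBJ1-6. The intervals overlapped among these V names and among the J genes, leaving aside the name TRBV13-2 alone. Its limit of 4.40% lay below the intervals of TRBV1, TRBV2 and TRBV10, but that limit depends on the naming. Of its CDR3s, 5 also occurred under the combined name with the same J, and these belonged to clonotypes in at least 2 cells there. By class it was 42 of 356 CD8 (11.8%, interval 8.64% to 15.6%) and 66 of 404 CD4 clonotypes (16.3%, interval 12.9% to 20.3%), and the largest had 25 and 10 cells.

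Cells with 2 TRB contigs were rare, 5 in the control (1.77%) and 38 after anti-CTLA-4 (2.49%). Such cells had, after anti-CTLA-4, a median of 6093 expression UMIs, against 3724 in cells with 1 contig. In the control library the medians were 2436 and 2309. Whether these are doublets or cells with 2 beta rearrangements cannot be told apart here.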

How the data were processed

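The 33 genes and the lists were chosen with earlier results of these data known. The authors deposited UMI counts per gene and barcode for the expression libraries, not normalized, and UMI and read counts per assembled receptor contig with V, D, J and C names, CDR3 and clonotype. The submitters' processing notes name Cell Ranger 5.0.0 and the builds mm10 and GRCm38. For the V(D)J reference and the annotation release, a version is not given in the sources used here. All TRB contigs were joined to the expression barcodes. The result of 1 marker list is not reported here. No cell filter, doublet caller or thinning was applied, so shares of cells with a UMI and classes depend on depth. Each group is 1 library, so no test was run and no p-value is given. A gene was compared if it had at least 10 clonotypes over both groups, and was called past a 1.5-fold ratio of shares, with groups at 0 set to 3 counts. Genes were named if they held at least 5% of clonotypes in either library, differed with intervals apart, or belonged to a list, with all J genes, the 5 largest clonotypes per library and those in both libraries. Outside this rule, TRBV3 and TRBV14 were named as past 1.5-fold in a comparison, and TRBV30 at the low end of usage. TRBJ2-1 endings and alpha combinations were named after their values were seen. Germline segments and coordinates were read from GENCODE M21 (GRCm38), and the CDR3 was split at the last match to each. Calculations used Python 3.11.15, pandas 2.3.3 and scipy 1.17.1, with figures from matplotlib 3.10.9. Interval coverage and the CDR3 split were tested on simulated data. The alternatives covered the contigs, clonotype definition, cells, minimum, fold, classes, V name and barcodes with a BCR contig.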

Additional observations from a re-analysis of the deposited data

Results flagged for a closer look

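In the anti-CTLA-4 library 51 of 1529 TRB barcodes (3.34%) also held a contig in the B cell receptor library, 47 of them a heavy chain, which the comparisons above do not use. Jchain, a gene of antibody-secreting cells, had a UMI in 45.1% of these 51 barcodes and in 4.74% of the other 1478, and Cd3e, a T cell gene, in 96.1% and 93.4%. Their immunoglobulin contigs had a median of 6 UMIs, against 13 for the other contigs of that library. The control group has no such library in the files used here. Without these barcodes the TRBV13-2 ratio was 1.49. A single control TRB barcode, 1 of 282, occurs among the barcodes of that library too. The sources of these contigs were not tested.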

How the results depend on the processing

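Over 138 alternative values of 21 results, the 3 J genes past 1.5-fold stayed 3 in each of the alternatives run, and the TRBJ2-7 ratio stayed between 1.66 and 1.87. A 2-fold threshold was not run for J genes. The main ratios of TRBJ1-5 (1.97) and TRBJ2-7 (1.72) lie below it, and that of TRBJ1-6 (2.20) above it. V calls were less stable in an alternative run for both: 3 V names became 1 with contigs of at least 3 UMIs. They became 0 at a 2-fold threshold, and 2 V names by cells became 1 at a minimum of 20 clonotypes, where fewer genes are compared. The TRBV13-2 ratio of 1.57 turned to 0.990 with both names merged, an alternative chosen after seeing the data. It was 1.49 without barcodes that hold a BCR contig, also chosen after seeing the data. With contigs of at least 3 UMIs the ratio was 1.25 for TRBV3 and 0.684 for TRBV16, and TRBV3 was also at 1.49 in cells with exactly 1 TRB contig and at 1.49 with amino acid CDR3s. In the control library the 2 V names past 1.5-fold between CD4 and CD8 became 0 when a class needed 2 UMIs, and the 2 between Foxp3 and other CD4 clonotypes became 1 with 2 Foxp3 UMIs. The other 127 values kept their direction and their side of the threshold, or stayed within their interval or within 1.5 times the count. With 282 control TRB cells and 1 library per group, V differences with overlapping intervals are left undecided. No paired analysis was possible because each group is a single library and no test was run.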
